A study of Mus musculus with 6 samples.

Results

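The comparison described here sets CD4 T cells without the proprotein convertase furin against control cells after activation in culture. It consists of 2 of the 6 arrays in the series, 1 for each genotype, and it covers every gene that could be measured on them, which were 10756 of the 18193 genes on the array. The 7437 genes left out read below a floor on both arrays. Both samples were sorted as CD4+CD62L+CD44- naive T cells from C57BL/6 mice of 10 to 11 weeks and were then cultured for 2 days with anti-CD3 and anti-CD28 fixed to the plate (5 µg/ml of each). The control, labelled WT, carried Fur flox/flox alleles without Cre. The Furin cKO (conditional knockout) sample carried CD4 cre Fur flox/flox. Both genotypes thus have loxP-flanked alleles of the gene now called Furin, and they differ in the Cre transgene as well as in furin. Cre under the Cd4 promoter acts from the thymocyte stage, so recombination in this model takes place before the cells are naive T cells and long before they are activated. The labels do not say how many mice gave each RNA sample.

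Furin sits in the secretory pathway and cuts precursor proteins after basic residues. Its substrates in T cells include the precursor of TGF-beta 1, a cytokine that restrains effector differentiation. Triggering of CD3 and CD28 drives naive CD4 cells into growth and division, and they turn on cytokine genes, lipid and glucose metabolism and, depending on the signals received, a helper programme such as the type 1 programme of T-bet and interferon-gamma.

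All values are microarray signals on a linear scale, made with MAS5. Each gene is read by 1 probe set, the brightest by mean log2 signal when all 6 arrays are counted. The floor is 47.6, the 40th percentile of the signals of those arrays pooled. Dimmer signals were set to the floor before a fold was taken, and a fold against such a signal is a lower bound, written "at least". Signals of different genes are not compared, because probe sets differ in brightness. With 1 array a genotype there is no replicate, no error and no test: each fold describes these 2 RNA samples, and no p-value is given. Grk3, among the brightest genes left out and named for that alone, read 47.5 on the control array.

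The arrays were alike in technical measures. The log2 signals of the 10756 genes correlated at 0.992, a description across genes that share 2 libraries. On the control array 49.4% of probe sets reached the floor and on the Furin cKO array 49.8%. Beta-actin, whose 3' to 5' ratio is high where RNA is degraded, had a ratio of 1.22 and 1.24. Of 9 CD4 T cell markers 8 were above the floor: Cd3d read 6932 and 6852, Cd3g 5133 and 5167, and Cd4 2425 and 1821, control first. Cd8a read 48.6 and 73.5, near the floor. The probe set for Furin read 515.8 on the control array and 468.3 in Furin cKO cells, 1.10-fold lower. Where it lies relative to the deleted part of the gene was not analysed here, and a probe set outside that part checks nothing about the deletion, so the labels are taken as they stand. On the memory arrays, used below only for values set side by side, Furin read 647.4 on the control and 2203 on the library labelled Furin cKO, 3.40-fold higher, against the label, and on the regulatory arrays 547.2 and 410.0.

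Few genes differed by a large factor at this floor. Of the 10756 genes, 42 read at least 2-fold higher on the Furin cKO array, which is 0.39% of those measured, and 40 read at least 2-fold lower, 0.372%. Of the 42, 10 were lower bounds, and of the 40, 9. Among the 10039 genes above the floor on each array, 32 were higher by that factor (0.319%) and 31 lower (0.309%). The counts rest on the floor: at the 20th percentile they were 477 and 448, and at the 60th 18 and 9. Differences of at least 1.5-fold were found for 238 genes upward (2.21%) and 270 downward (2.51%). Any difference upward was seen for 48.9% of the genes and any difference downward for 51%, so the distribution was centred, with a median log2 fold of -0.00. The spread of the folds depended on brightness. With the genes cut into 5 bins of equal size by brightness, in the dimmest bin the scaled median absolute deviation of the log2 folds was 0.35 and 1.95% of genes passed 2-fold. In the brightest bin it was 0.13 and 0.139% passed, which were 3 genes higher and 0 lower. Those 3 were the chemokine gene Ccl3, the cytotoxic granule gene Nkg7 and Atp5k, a subunit gene of the mitochondrial ATP synthase. In the dimmest bin, 20 genes passed 2-fold upward and 22 downward. Just inside the 2-fold line lay Sema4b at 2.01-fold higher and St8sia6 at 2.01-fold lower. Just outside lay Oxsm, with 186.8 on the control array and 373.3 in Furin cKO cells, and Slc4a8 at 1.97-fold lower. These genes next to the line were picked by their values.

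**Figure D1:**
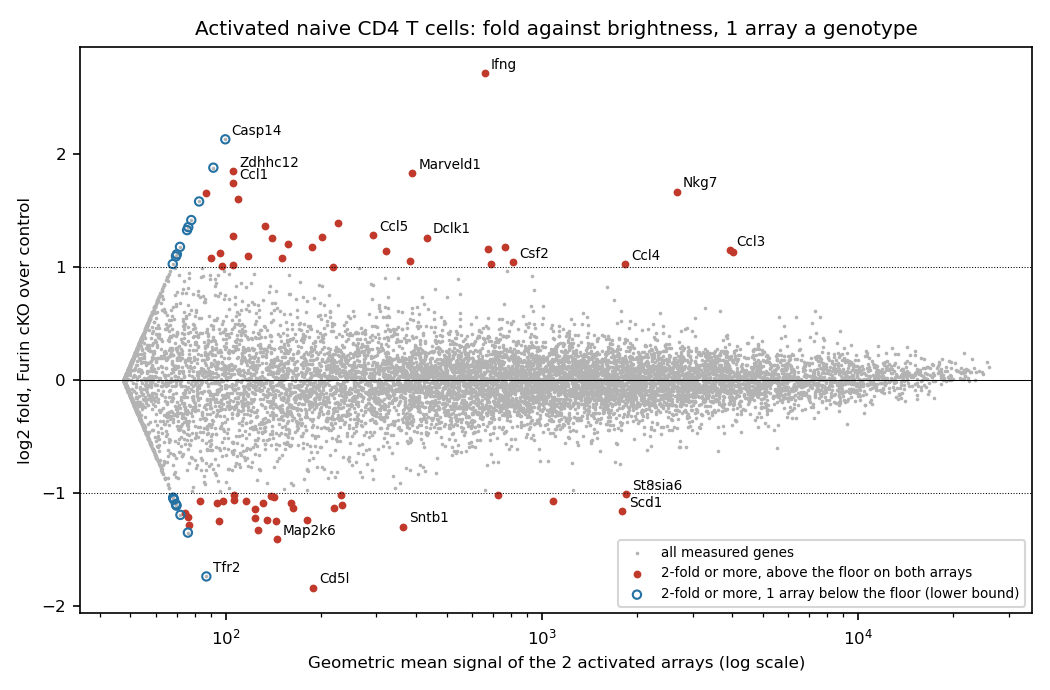
The log2 fold of the Furin cKO over the control array (vertical) is plotted against the geometric mean signal of both arrays on a log scale (horizontal) for 10756 genes, with dotted lines at 2-fold. Grey points are all genes, red points are at least 2-fold apart and above the floor on both arrays, and open blue points are lower bounds; the scatter narrows with brightness, while Ifng, Nkg7 and Ccl3 stand apart at medium to high signal.

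Genes for secreted chemokines read higher on the Furin cKO array throughout. All 9 measured members of a list of 13 were higher, where 48.9% of all genes were, and 5 were at least 2-fold higher, where 0.39% of all genes were. Their median log2 fold was 1.03, against -0.00 over all genes. This list and those below were chosen with earlier results of these data known, so their counts describe and do not test. In RNA from a whole culture, more transcript in each cell and more cells of a subset cannot be told apart. Chemokines are small secreted proteins that attract leukocytes through G protein-coupled receptors. Ccl3, which draws in T cells and monocytes, read 2649 on the control array and 5902 in Furin cKO cells, 2.23-fold higher. The related chemokine gene Ccl4 read 1284 and 2624, 2.04-fold higher, and Ccl5, an attractant of effector and memory T cells, read 186.9 and 455.3. Ccl1, the ligand of CCR8, read 57.7 and 193.3, 3.35-fold higher, with the control close to the floor. Ccl9 read 114.8 and 219.6, 1.91-fold higher. Of the members with both signals above the floor the closest pair was that of Cxcl16, the ligand of CXCR6, with 67.7 and 99.5. In 3 members the control lay below the floor: Xcl1, the attractant of cross-presenting dendritic cells, read 127.3 on the Furin cKO array, at least 2.67-fold higher, Ccl20 at least 1.92-fold and Ccl22 at least 1.43-fold. These 3 counted as measured only through the Furin cKO array, so the floor fixed their direction. Ccl17, Cxcl9, Cxcl10 and Cxcl11, the last 3 of which are interferon-induced ligands of CXCR3, were below the floor on both arrays. The chemokine receptors did not share this shift. Of 9 measured receptors 5 were higher and 4 lower, with a median of 0.02. Ccr7, the receptor for homing to lymph nodes, read 6369.9 and 8502, and was higher. The effector receptor Cxcr6 read 196.1 and 132.0, Ccr6 1084 and 827.6, and Ccr4 91.7 and 52.1, and these 3 were lower.

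Other cytokine genes were mostly higher by smaller factors. Of 10 measured members of the list of secreted cytokines, 9 were higher and 2 at least 2-fold, beside 48.9% and 0.39% of all genes. The median log2 fold was 0.24. The 2 were Csf2, which encodes the growth factor GM-CSF (562.3 and 1163, 2.07-fold), and Il3, the multi-lineage haematopoietic growth factor (265.1 and 551.9, 2.08-fold). Penk, the precursor of enkephalin peptides, read 1438 and 2198, 1.53-fold higher. Il2, the growth factor of activated T cells, was bright on both arrays at 10455 and 12875, 1.23-fold higher. Osm read 259.3 and 339.1, and Lif, of the same family, 989.3 and 1069. Csf1 was the member that was lower, with 109.1 and 100.7. Il4, Il5, Il9, Il10, Il13, Il17a and Il21 were below the floor on both arrays, so the signature cytokines of type 2 cells could not be compared.

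Among type 1 helper genes 14 of 19 measured members were higher, where 48.9% of all genes were, and 1 at least 2-fold, where 0.39% of all genes were. The median log2 fold was 0.20. Ifng, which encodes the cytokine that defines this programme, read 256.6 on the control array and 1695 in Furin cKO cells. At 6.61-fold it was the largest measured difference of all genes above the floor on both arrays. The other cytokines of the list were closer to each other: Lta, encoding lymphotoxin-alpha, read 1102 and 1664, 1.51-fold higher, and Tnf 1369 and 1628, 1.19-fold higher. Of 9 transcription factors 7 were higher. Tbx21, which encodes T-bet, read 1208 and 2140.0, 1.77-fold higher, and Irf8, an interferon-regulated factor, 5927 and 9084, 1.53-fold higher, with its other probe set at 1.37-fold. Stat4, which carries the interleukin 12 signal, read 4329 and 5232. Eomes, the T-box relative of T-bet, read 170.1 and 186.8, and Runx3 400.2 and 379.3. The receptors were not shifted as a group, with 4 of 7 higher and a median of 0.01. Il12rb1, a chain of the interleukin 12 receptor, read 2281 and 2782, whereas Il12rb2, its signalling partner, was below the floor on both arrays. The chains of the interleukin 18 receptor pointed apart, with Il18rap at 89.8 and 124.9 and Il18r1 at 127.8 and 99.7. Ifngr1 read 571.1 and 510.8.

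Of the cytotoxic genes, 11 of 16 measured members were higher (48.9% of all genes), and 1 passed 2-fold (0.39% of all genes). The median log2 fold was 0.28. Nkg7, a membrane protein of cytotoxic granules, read 1499 and 4776, 3.19-fold higher. Gzmb, the serine protease granzyme B, read 674.8 and 1280.2, 1.90-fold higher. Serpins were higher as well: Serpinb9, the inhibitor of granzyme B, read 2959.7 and 4527, 1.53-fold higher, with its other probe set higher as well, and Serpinb6b 2634 and 4107, 1.56-fold higher. Crtam, a receptor that marks CD4 cells with cytotoxic potential, read 554.2 and 743.4. On the other side, Ctsc, the protease that activates granzymes, read 10586 and 8079.9, 1.31-fold lower, and Fasl, the death receptor ligand, 1820.1 and 1451, 1.25-fold lower. Another probe set of each pointed the other way, for Fasl by 1.07-fold and for Ctsc by at least 1.01-fold, with the control below the floor. Perforin (Prf1) read 52.3 and 48.3, and the granzyme genes Gzma, Gzmc, Gzmd, Gzme, Gzmf, Gzmg and Gzmk were below the floor on both arrays. Dim members with the control below the floor were Ctsw (at least 1.57-fold higher), Klrg1 (at least 1.68-fold) and Klrc1 (at least 1.22-fold). The floor fixed their direction, as it did for Gzmm, which was below the floor on the Furin cKO array only and counted as lower.

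**Figure D2:**
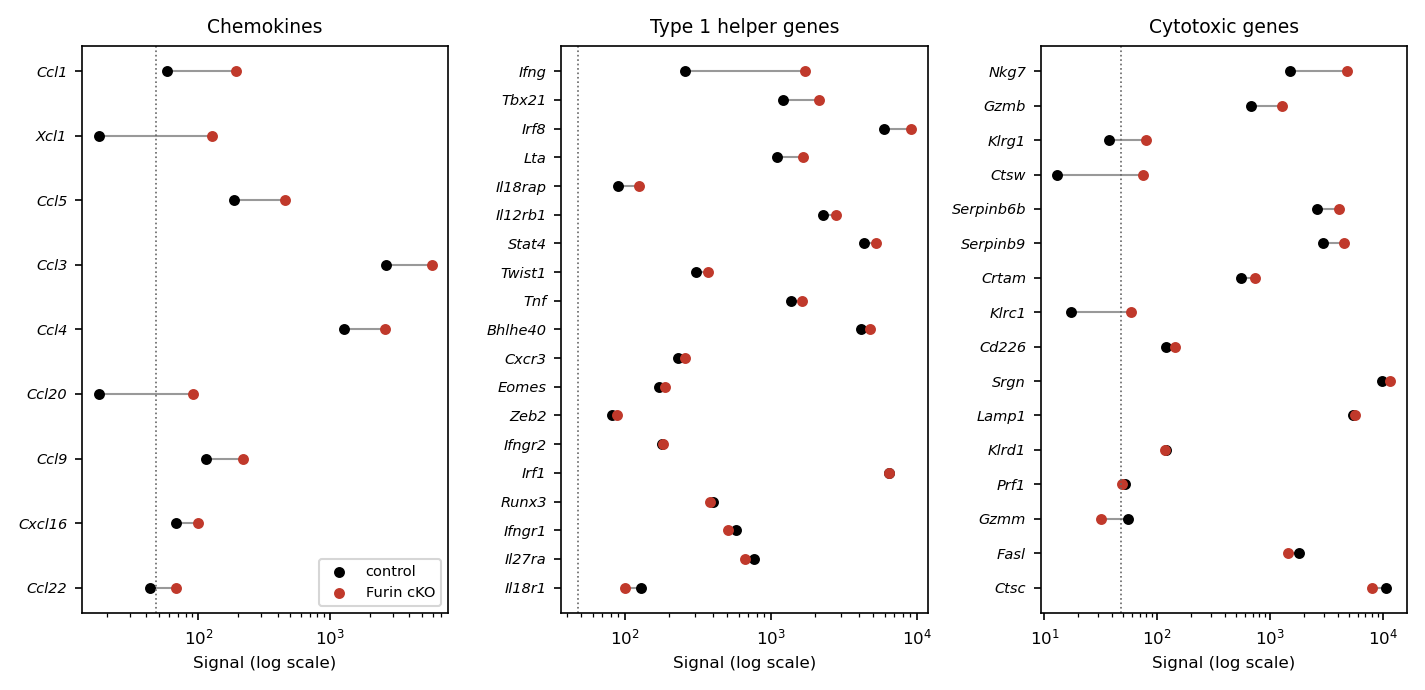
Signals (log scale) on the control array (black) and on the Furin cKO array (red) are joined for each measured member of the chemokine, type 1 helper and cytotoxic lists, ordered by log2 fold; the dotted line is the floor of 47.6. All 9 chemokines have the red point to the right, as do 14 of 19 type 1 and 11 of 16 cytotoxic genes. Members with the control below the floor could lie only to the right.

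The promoters of Ifng and Nkg7, the members with the largest differences in these lists, are shown because motifs of T-bet and of STAT proteins are part of the known control of this programme. They are the 250 bases before the start site, from RefSeq on GRCm38.p6, at chr10:118440796-118441045 on the plus strand for Ifng and chr7:43436888-43437137 on the plus strand for Nkg7. Capitals mark the gamma-activated site pattern TTCNNNGAA in Ifng and the T-box pattern TCACACC, here on the opposite strand, in Nkg7. The Nkg7 window also holds a gamma-activated site pattern and a CCAAT pattern, which are not marked.
Ifng: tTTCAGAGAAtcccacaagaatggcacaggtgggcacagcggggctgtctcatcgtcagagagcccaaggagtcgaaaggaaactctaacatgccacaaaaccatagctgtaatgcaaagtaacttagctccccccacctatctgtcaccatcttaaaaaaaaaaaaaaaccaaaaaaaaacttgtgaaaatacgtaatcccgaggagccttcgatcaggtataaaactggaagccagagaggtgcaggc
Nkg7: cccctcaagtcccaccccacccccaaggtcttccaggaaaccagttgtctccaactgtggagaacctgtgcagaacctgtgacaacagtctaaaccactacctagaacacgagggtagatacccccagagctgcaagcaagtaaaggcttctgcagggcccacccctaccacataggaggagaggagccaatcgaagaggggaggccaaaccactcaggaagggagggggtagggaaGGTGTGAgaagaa
In this window, searched on both strands, the T-box pattern was found in 3 of 11 cytotoxic genes with a promoter in the table (Nkg7, Gzmm and Ctsc), in 2 of 6 chemokines (Xcl1 and Ccl20), in 0 of 16 type 1 genes and in 3.41% of 8772 measured genes. Of its holders, Nkg7, Xcl1 and Ccl20 were higher, and Gzmm and Ctsc lower. The gamma-activated site pattern was found in 6 of 16 type 1 genes, in 3 of 11 cytotoxic genes and in 7.10% of measured genes. Of its holders in these lists, Ifng, Lta, Irf8, Zeb2 and Nkg7 were higher, and Irf1, Il18r1, Gzmm and Ctsc lower. The cholesterol synthesis genes Ggps1, which was higher, and Ebp, which was lower, held it too. The match in Ifng began 249 bases and that in Nkg7 13 bases before the start site, and neither overlapped another motif searched. A match is only a run of letters, and binding was not measured.

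Genes induced by interferons were split. Over a list of 27 measured members, 15 were higher and 12 lower, with a median log2 fold of 0.05. The groupings by function that follow were made after the values were seen, so the split between them is a description that the choice of members shaped. Together they hold more genes than the list, so they are not a division of its 27 measured members. Guanylate-binding proteins and immunity-related GTPases, which attack intracellular pathogens and are strong targets of interferon-gamma, were higher for 10 of the 11 measured genes of these families, with a median of 0.24. Irgm1 read 1327 and 2167, 1.63-fold higher, Iigp1 5241 and 7725, 1.47-fold higher with its other probe set at 1.61-fold, and Gbp3 752.0 and 1064, 1.41-fold higher. Gbp2 was bright on both arrays at 11659 and 14181, and Ifi47 was the member that was not higher, with 9868 and 9732. These families hold close paralogs, so probe sets may share signal between members. Antiviral effector and feedback genes, which answer mainly to type I interferon, were lower for 9 of 12 measured members with a median of -0.43. The 10 other members had 7 higher and a median of 0.10. Isg20, an exonuclease, read 480.0 and 247.2, 1.94-fold lower, and Usp18, the protease that removes ISG15 and dampens type I interferon signalling, 195.5 and 130.5, also lower. Xaf1 read 146.8 and 61.9, 2.37-fold lower, and Rsad2, which encodes viperin, 115.4 and 68.1, 1.69-fold lower. Most of these genes were dim, with Ifit1, Ifit3 and Oas2 below the floor on the Furin cKO array, while Oas1a read 349.0 and 485.7, higher. Ifit1, Ifit3 and Oas2 counted as measured only through the control array, so the floor fixed their direction as lower. Irf1, an interferon-induced transcription factor, read 6464 and 6407, and Socs1, a feedback inhibitor of interferon signalling, 135.6 and 148.3.

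**Figure D3:**
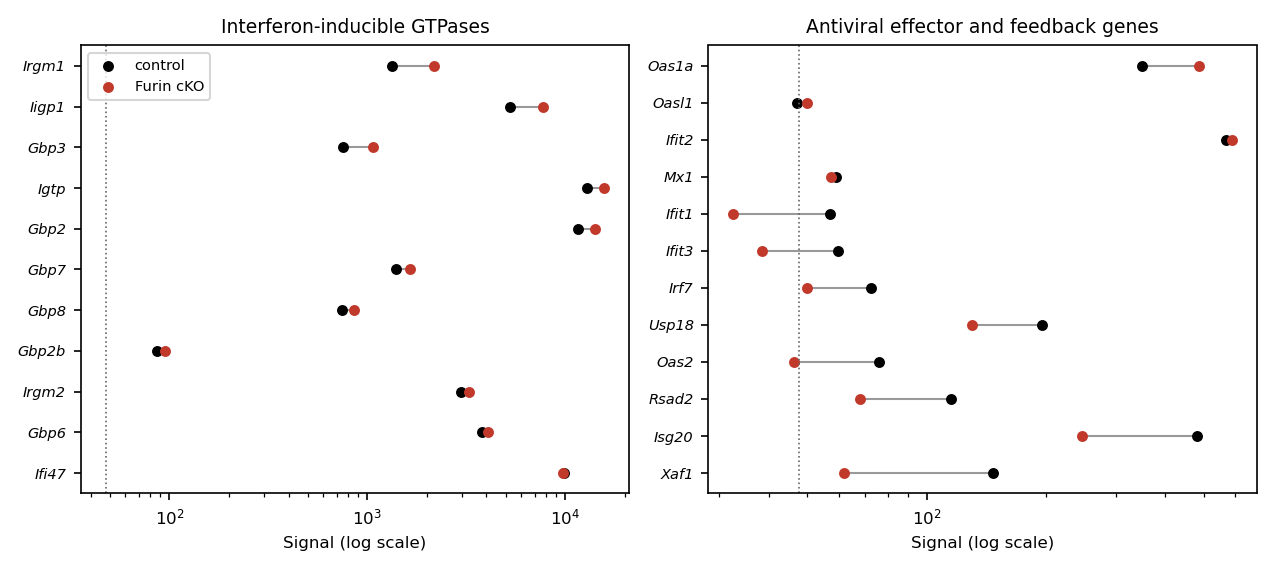
Signals (log scale) on the control array (black) and the Furin cKO array (red) are joined for the 11 measured interferon-inducible GTPase genes and for 12 antiviral effector and feedback genes, ordered by log2 fold; the dotted line is the floor of 47.6. The GTPases lie to the right on the Furin cKO array in 10 of 11 genes, and the antiviral genes to the left in 9 of 12. Ifit1, Ifit3 and Oas2, below the floor on the Furin cKO array, could lie only to the left.

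Genes of other helper fates were lower or split. Type 2 genes were lower for 5 of 6 measured members, where 51% of all genes were, with a median log2 fold of -0.34. Gata3, the regulator of that fate, read 304.7 and 251.5, 1.21-fold lower, the phosphatase gene Dusp6 5554 and 4179, 1.33-fold lower, and Ccr4 1.76-fold lower near the floor. The type 17 list had 4 of 6 members higher and a median of 0.11. Its furthest member Rora, a nuclear receptor that supports that fate, read 364.2 and 200.7, 1.81-fold lower, and the 4 other probe sets of Rora were lower too, by 1.46-fold to 1.77-fold. The regulatory T cell list had 6 members higher and 8 lower, with a median of -0.12. Ctla4 read 11925 and 10316, Ikzf2 (Helios) 582.4 and 442.0, Ikzf4 (Eos) 275.3 and 179.6 with another probe set the other way, and Il2ra 2320.5 and 2340.2. Foxp3 was below the floor on both arrays. The follicular helper list was split at 6 higher and 6 lower, with a median of 0.02: Sh2d1a, the adaptor SAP, read 1452 and 2067, Bcl6 242.0 and 297.7, and Icos 11188 and 10972. Inhibitory receptors had 4 of 10 higher and a median of -0.20. Cd274, which encodes PD-L1, read 3312 and 2566, 1.29-fold lower, and Pdcd1, which encodes PD-1, 2679 and 3129.5, 1.17-fold higher.

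Activation markers differed little. Of 9 measured activation markers 5 were higher and 4 lower, with a median log2 fold of 0.01 and none past 1.5-fold. Cd69 read 5934 and 6777, Cd44 5916 and 7146, and Tfrc, the transferrin receptor, 13913 and 13532. The genes of T cell receptor signalling had 14 of 27 members higher and a median of 0.00. Map2k6, a kinase upstream of p38, was the exception at 236.2 and 89.0, 2.65-fold lower. Calcium-driven and early activation factors had 16 of 29 members higher and a median of 0.01. Nr4a1, a reporter of receptor signal strength, read 5738 and 5868, Egr2 6451 and 8234, Irf4 10011 and 9383, and Myc 4657 and 4957. The feedback genes of that list were split at 6 higher and 6 lower, with a median of -0.02. Among them Spry1 (Sprouty 1), an inhibitor of the ERK pathway, read 3361 and 2227, 1.51-fold lower. Cblb, a ubiquitin ligase that restrains activation, read 1183 and 1662, 1.41-fold higher with 2 other probe sets also higher. Of 11 AP-1 genes 8 were higher, with a median of 0.17, led by Atf3 at 396.4 and 584.4. NF-kB genes had 15 of 20 higher and a median of 0.07. The 6 targets among them had a median of 0.18, with Icam1 at 1660.5 and 2344, while the subunit gene Relb read 645.3 and 545.0, lower.

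Receptors of the common gamma chain family were higher for 5 of 6 measured members, with a median log2 fold of 0.34. Il7r, the interleukin 7 receptor of resting cells, read 225.4 and 372.2, 1.65-fold higher, and Il21r 1105 and 1464, 1.32-fold higher. Il15ra read 571.5 and 742.3. Il2rb, the signalling chain shared by interleukins 2 and 15, was the member that was lower, at 508.4 and 389.1, and its other probe set pointed the other way. Downstream of these receptors 14 of 20 JAK, STAT and SOCS genes were higher with a median of 0.11 and none past 1.5-fold, the furthest being Stat5a at 1326 and 1720.5. TNF family ligands were split at 6 higher and 6 lower, and 9 of 11 TNF receptors were higher with a median of 0.08. Tnfrsf1b, which encodes TNF receptor 2, was lower at 768.5 and 531.7, with another probe set higher.

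A pair of enzymes that build the sugar ligands of selectins, which T cells need to leave the blood in inflamed tissue, were lower. Gcnt1, the core 2 branching enzyme, read 222.8 and 93.8, 2.38-fold lower, with its other probe set 1.67-fold lower. Fut7, the fucosyltransferase that completes these ligands, read 167.6 and 79.9, 2.10-fold lower. The sialyltransferase St3gal4 pointed the other way at 172.4 and 263.5, and Selplg, the protein that carries the ligands, read 3674 and 3787. St8sia6, another sialyltransferase and outside the lists and chosen after its values were seen, read 2623 and 1306, with 3 probe sets 1.79-fold to 2.56-fold lower. The class of adhesion ligands, selectins and selectin ligand enzymes as a whole had 11 of 17 members higher and a median log2 fold of 0.20, and the integrins 3 of 8 higher and a median of -0.06. The whole adhesion list had 14 of 25 higher, beside 48.9% of all genes. In it 2 members were at least 2-fold lower, the glycosyltransferases Gcnt1 and Fut7, beside 0.372% of all genes. Cell contact and cytoskeleton genes were higher for 17 of 22 measured members, with a median of 0.13. Tagln2, an actin-bundling protein of the T cell synapse, read 6219.9 and 9199, higher, with its other probe set also higher, and the LIM protein gene Ajuba 139.6 and 366.5. Tpm2 read 62.6 and 190.8, but 1 of its other probe sets pointed the other way, and with a floor at the 20th percentile its log2 fold turned to -0.82. All 4 measured S100 genes were higher with a median of 0.35, led by S100a6 at 61.6 and 130.8.

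Genes of lipid synthesis were mostly lower. Of 18 measured genes of cholesterol synthesis 15 were lower, where 51% of all genes were, with a median log2 fold of -0.28 and 0 past 2-fold. Direction was the same along the later pathway. All 11 genes of the sterol arm, from squalene synthase to the last reductase, were lower, with log2 folds from -0.44 to -0.09. Lss, lanosterol synthase, read 3473 and 2564, 1.35-fold lower. Dhcr7, the last reductase, read 927.6 and 695.9, 1.33-fold lower. Nsdhl, which removes the C4 methyl groups, read 1823 and 1397, Sc5d, the desaturase, 4675 and 3641, and Cyp51, the demethylase, 5339 and 4184. The smallest difference was in Fdft1, squalene synthase, at 2908 and 2731, and its other probe set was 1.53-fold lower. Of the 10 other probe sets of these 11 genes, 6 were lower and 4 higher, and 3 of those 4 differed by at most 1.08-fold. The other was a dim probe set of Msmo1, which read 50.4 and 81.5, 1.62-fold higher, a larger factor than that of any sterol arm gene by its main probe set. The earlier mevalonate arm was mixed, with 4 of 7 lower. Mvd, the decarboxylase, read 655.8 and 414.7, 1.58-fold lower, and Pmvk 2811 and 2018, 1.39-fold lower. Hmgcs1 read 8993 and 7886, and its 4 other probe sets were lower as well. Idi1 read 11348 and 11508, Mvk was higher at 268.7 and 308.6, and so was Ggps1, on a side branch to protein prenylation, at 401.5 and 473.7.

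Fatty acid enzymes were mostly lower too, with the largest differences in desaturases. Of 13 measured genes 11 were lower and 1 at least 2-fold lower, beside 51% and 0.372% of all genes, and the median was -0.15. Of the 18 other probe sets of these genes 17 were lower. Scd1, the stearoyl-CoA desaturase, read 2688 and 1206, 2.23-fold lower, with its other probe set 1.38-fold lower. Fads2, the first desaturase of polyunsaturated fatty acid synthesis, read 2188 and 1323, 1.65-fold lower, with its 2 other probe sets 1.45-fold and 1.51-fold lower, and Fads1 read 871.5 and 710.7. Acss2, which makes acetyl-CoA from acetate, read 293.4 and 219.4, 1.34-fold lower, and 1.92-fold lower by its other probe set. The chain-building enzymes differed from this: Fasn read 3101 and 3586, 1.16-fold higher, and Acaca 1026 and 1106. Of 12 measured genes of sterol regulation and uptake 10 were lower, where 51% of all genes were, with a median of -0.16. Their 15 other probe sets did not share this direction, with 8 higher and 7 lower. Srebf2, the transcription factor that controls cholesterol genes, read 734.4 and 489.7, lower, but its other probe set was 1.04-fold higher. Its retention factors Insig1 and Insig2 read 1623 and 1453, and 1173 and 943.1. Mbtps1, the site-1 protease that releases it and is itself a convertase relative, read 1799 and 1616. Its 2 other probe sets were 1.15-fold and 1.37-fold higher. Targets of the oxysterol receptor LXR were lower for 7 of 8 measured members with a median of -0.14, in a list that shares Scd1 and Scd2 with the fatty acid genes. Its efflux targets Abca1 and Abcg1 read 390.0 and 303.8, and 428.7 and 375.5.

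**Figure D4:**
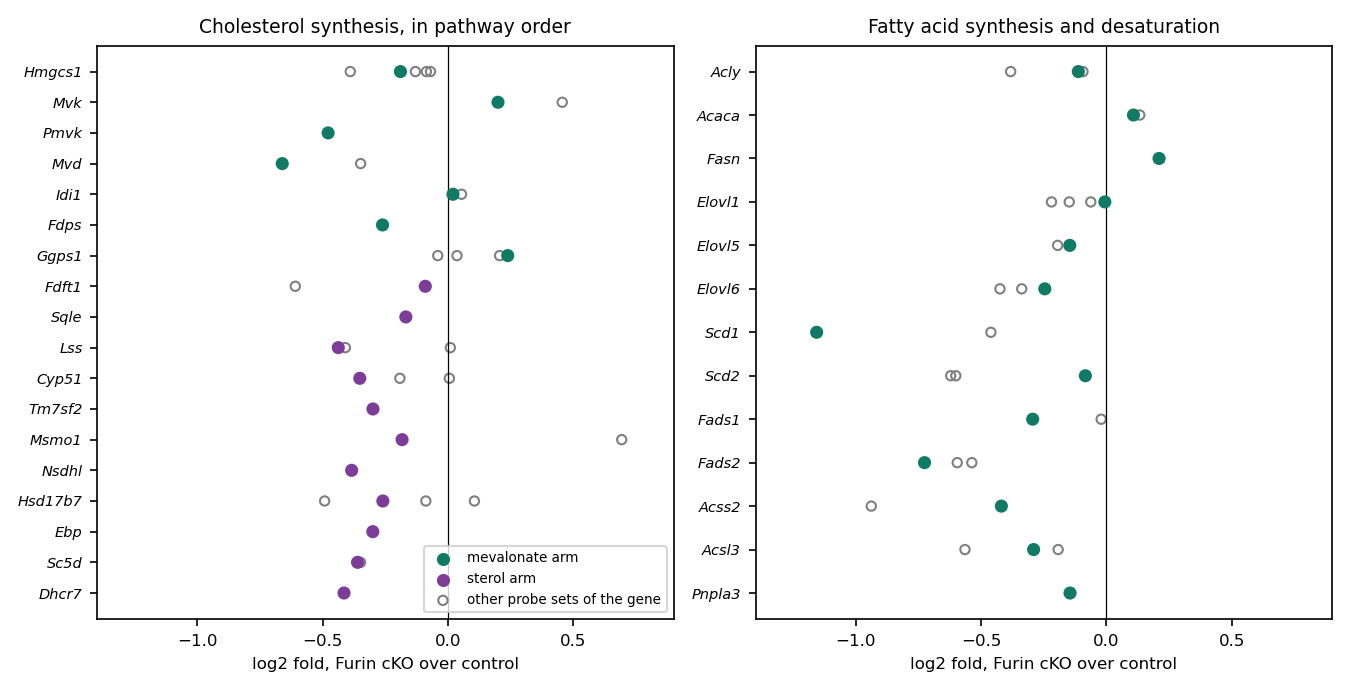
Log2 folds of the Furin cKO over the control array (horizontal) are shown for the measured genes of cholesterol synthesis, from the first enzyme at the top to Dhcr7 at the bottom, and of fatty acid synthesis. Filled points are the probe set that stands for the gene (purple for the sterol arm), and open points its other probe sets; all 11 sterol arm genes and 11 of 13 fatty acid genes lie left of 0.

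The promoters of 5 lower cholesterol genes are shown because these genes differed together and because CCAAT boxes, bound by NF-Y, are known partners of the sterol-responsive factors SREBP there. They are the 250 bases before the start site from RefSeq on GRCm38.p6. Mvd is at chr8:122443423-122443672 on the minus strand, Lss at chr10:76531355-76531604 on the plus strand, Cyp51 at chr5:4104698-4104947 on the minus strand, Nsdhl at chrX:72918271-72918520 on the plus strand and Sc5d at chr9:42264301-42264550 on the minus strand. Capitals mark CCAAT on either strand.
Mvd: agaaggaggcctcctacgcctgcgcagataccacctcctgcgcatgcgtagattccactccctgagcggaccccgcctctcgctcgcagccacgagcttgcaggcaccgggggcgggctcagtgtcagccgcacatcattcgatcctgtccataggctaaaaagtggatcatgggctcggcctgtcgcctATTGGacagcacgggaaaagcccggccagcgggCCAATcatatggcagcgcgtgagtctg
Lss: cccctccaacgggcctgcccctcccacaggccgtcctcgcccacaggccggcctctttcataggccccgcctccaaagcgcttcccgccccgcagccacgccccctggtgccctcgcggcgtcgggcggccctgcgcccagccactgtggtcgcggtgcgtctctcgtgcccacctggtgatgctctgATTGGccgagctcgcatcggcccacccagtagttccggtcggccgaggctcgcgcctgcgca
Cyp51: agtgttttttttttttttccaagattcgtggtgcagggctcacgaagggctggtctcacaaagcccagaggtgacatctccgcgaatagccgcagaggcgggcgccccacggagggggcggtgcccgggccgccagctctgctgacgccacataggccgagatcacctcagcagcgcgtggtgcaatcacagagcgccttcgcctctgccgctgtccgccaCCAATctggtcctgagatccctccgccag
Nsdhl: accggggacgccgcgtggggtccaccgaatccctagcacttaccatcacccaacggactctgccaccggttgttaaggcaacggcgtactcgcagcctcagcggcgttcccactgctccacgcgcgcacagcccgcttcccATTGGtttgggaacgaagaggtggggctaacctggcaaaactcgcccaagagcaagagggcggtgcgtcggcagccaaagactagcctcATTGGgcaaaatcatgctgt
Sc5d: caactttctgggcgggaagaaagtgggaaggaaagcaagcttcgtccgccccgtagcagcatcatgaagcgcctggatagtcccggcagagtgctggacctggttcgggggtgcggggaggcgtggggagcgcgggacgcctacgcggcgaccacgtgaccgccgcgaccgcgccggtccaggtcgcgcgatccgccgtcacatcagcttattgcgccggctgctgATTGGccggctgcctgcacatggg
The CCAAT pattern was found in the window of all 15 cholesterol synthesis genes that have a promoter in the table, in 6 of 10 fatty acid genes, in 1 of 6 chemokines and in 40.5% of 8772 measured genes. It was found in the 3 cholesterol genes that were higher as well (Mvk, Idi1 and Ggps1). Type 1 helper genes, mostly higher, held the pattern too: Tbx21, Eomes, Runx3, Stat4, Irf1, Irf8, Twist1, Zeb2, Il18r1, Ifngr1 and Ifngr2. Of the cytotoxic genes Gzmm, Nkg7 and Fasl held the pattern. In the 5 promoters printed, the boxes began 20 to 109 bases before the start site, and none overlapped another motif searched. The strict sterol regulatory element pattern TCACNCCAC was found in 1 of the 15, Hmgcs1, and in 1.24% of measured genes. An AP-1 pattern, TGANTCA, was found in 2 of the 15 and in 4.96% of measured genes, and a kappa-B pattern in 3 of 6 chemokines (Ccl1, Ccl9 and Ccl20) and in 6.27%. These 6 patterns were chosen after the values were seen.

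Other metabolic and growth genes differed less. In the glycolysis list 8 of 20 members were higher and the median log2 fold was -0.02. The 20 include Pigq (4056 and 3956), a gene of GPI anchor synthesis that is not part of glycolysis. Lactate dehydrogenase A (Ldha) read 21657 and 21808, while Hk2, the inducible hexokinase, read 2675 and 1739, 1.54-fold lower, and Aldoc 283.9 and 155.9. Among hypoxia targets 10 of 15 were lower with a median of -0.03. The mitophagy receptor gene Bnip3 read 2289 and 1370.2, 1.67-fold lower, and the prolyl hydroxylase gene Egln3 396.1 and 740.0, 1.87-fold higher with its other probe set higher too. Amino acid and ATF4 genes were lower for 20 of 27 with a median of -0.12, and Asns, asparagine synthetase, read 2348 and 1643. In the respiratory chain 34 of 46 members were higher, and the median was 0.07. Atp5k, outside that list and chosen after its values were seen, read 2708 and 5965, 2.20-fold higher, with its 2 other probe sets 1.27-fold and 1.62-fold higher. DNA replication genes had 19 of 30 lower with a median of -0.07, and mitosis genes 14 higher and 14 lower with a median of -0.01. No member of either list passed 1.5-fold, and Mki67 read 9774 and 10102. Ribosome biogenesis had 18 of 25 higher with a median of 0.07. Among cytosolic chaperones the inducible pair of near-identical genes Hspa1a and Hspa1b read 254.8 and 399.5, and 509.9 and 1154, higher by 1.57-fold and 2.26-fold, with the 2 other probe sets of Hspa1b higher too. Hspa8 read 22532 and 22475, and the median of the 15 chaperones was 0.03. The unfolded protein response had a median of -0.02 over 24 genes, and Hspa5, its marker chaperone, read 17569.9 and 17456.

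Relatives and substrates of furin were not shifted as groups. Of 6 measured convertase genes 3 were higher and 3 lower, with a median log2 fold of 0.00. Pcsk7, a convertase of the same pathway, read 587.3 and 649.7, and Pcsk1, known from neuroendocrine cells, 48.5 and 89.4, the control just above the floor. Pcsk5 was below the floor on both arrays. Of 21 genes for convertase substrates 9 were higher and 12 lower, with a median of -0.06. Tgfb1 read 482.0 and 494.0, the sheddase gene Adam17 1767 and 1479, and Igf1r, the growth factor receptor, 872.2 and 647.1, 1.35-fold lower with 4 other probe sets lower too. The TGF-beta list had 14 of 21 higher and a median of 0.01. Its receptors Tgfbr1 and Tgfbr2 read 984.5 and 989.8, and 1419 and 1451, and of its targets the feedback inhibitor Smad7 read 308.9 and 424.3, with another probe set the other way, and Skil 1134 and 1156. Itgae, a TGF-beta induced integrin, was below the floor on both arrays.

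Several differences outside these lists were carried by more than 1 probe set. Among 5210 genes with at least 2 probe sets above the floor, 13 (0.25%) had every probe set at least 1.5-fold higher and 7 (0.134%) every probe set at least 1.5-fold lower. By the main probe set alone these shares were 2.21% and 2.51% of all genes. In some of them, Dclk1 included, a probe set was below the floor on 1 array, so the floor fixed its direction. Dclk1, a microtubule-associated kinase, had 7 probe sets 1.56-fold to 3.03-fold higher, the smallest a lower bound, and its main probe set read 278.7 and 669.6. Adm, the vasodilator peptide adrenomedullin, read 335.3 and 534.1, with 2 probe sets 1.59-fold and 1.80-fold higher. The B cell chemokine gene Cxcl13 had 2 probe sets higher, its main one at 129.9 and 195.3 and the other 7.46-fold higher, from 49.8 to 371.7. Idh1, the cytosolic isocitrate dehydrogenase that supplies NADPH for lipid synthesis, read 487.9 and 259.9, with 2 probe sets 1.70-fold and 1.88-fold lower. These 4 genes were chosen after their values were seen. Marveld1, a membrane protein, read 206.5 and 736.2, and its 2 other probe sets were higher by 1.47-fold and 1.71-fold. Sntb1, a syntrophin adaptor, read 569.9 and 232.3, with 3 other probe sets lower. Over the 82 genes past 2-fold, 26 had another probe set above the floor. In 18 of the 26 every other probe set had the same direction, and in 8 at least 1 was opposite, as in Tfr2.

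Of the remaining large differences many rested on 1 probe set at low signal. The palmitoyltransferase genes Zdhhc12 and Zdhhc9 read 55.7 and 200.8, and 90.6 and 216.7, whereas the list of palmitoylation and prenylation enzymes was split at 11 higher and 11 lower. Camta1 (82.9 and 213.2), Dtx3 (103.5 and 239.2), Rpl39l (129.4 and 312.5) and Krtap12-1 (67.9 and 164.9) were also higher. Casp14, Clip4, Mpzl2, Thoc2l and Tpcn1 had control signals below the floor and read at least 2.51-fold to 4.39-fold higher. The circadian repressor Cry2 read 200.1 and 79.9, 2.50-fold lower, and 10 of 14 clock genes were lower with a median log2 fold of -0.17. Clec2d, the ligand of an inhibitory NK receptor, read 189.0 and 81.4, Trpm6 206.9 and 87.7, Sox12 324.5 and 148.4, Swsap1 184.2 and 83.8, and the ceramide kinase gene Cerk 234.2 and 110.5, all lower. Wdfy1 read 341.5 and 158.7 with 2 other probe sets lower, and Timd2 191.7 and 90.4 with 1. Tfr2, Usp2, Tmem106a, Vegfa, Septin3 and Mycn were below the floor on the Furin cKO array, at least 2.14-fold to 3.33-fold lower. For Vegfa the other probe set pointed up, from 43.0 to 56.6, and its log2 fold turned to 0.40 with the floor moved to the 20th percentile and to 0.31 with quantile normalization.

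Markers of other cells were partly below the floor and partly above it. Of 7 NK cell markers 6 were below the floor on both arrays, Ncr1 at 12.7 and 15.4, and the summed signal of the list was 237.2 on the control array and 244.6 in Furin cKO cells, most of it from Eomes, which T cells also express. The CD8 markers Cd8a and Cd8b1 summed to 155.3 and 202.8. Of 20 myeloid and dendritic markers 11 were below the floor on both arrays, among them Itgam, Lyz2, Tyrobp and C1qa, and the list summed to 2285 and 1993. Cd5l, a protein of tissue macrophages, was the outlying member at 356.2 and 99.8, 3.57-fold lower, while Adgre1 read 205.3 and 201.7 and Cd68 155.0 and 149.2. Of 10 B cell markers 7 were below the floor on both arrays, Cd79a and Ms4a1 among them, and the list summed to 498.3 and 368.8. Fcrl1, its brightest member, read 277.7 and 117.7. Plasma cell markers summed to 6820 and 6614 and were led by Xbp1 and Ighm, with Jchain and Igha below the floor. Derl3, of the same list, read 109.9 and 55.8. Granulocyte markers had 1 of 10 members above the floor, erythroid markers 1 of 4 and gamma delta and innate-like markers 1 of 4. The part of other cells in the lower signals of Cd5l, Fcrl1 and Derl3 was not tested. These sums set the signals of different probe sets together and serve only to compare both arrays.

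**Figure D5:**
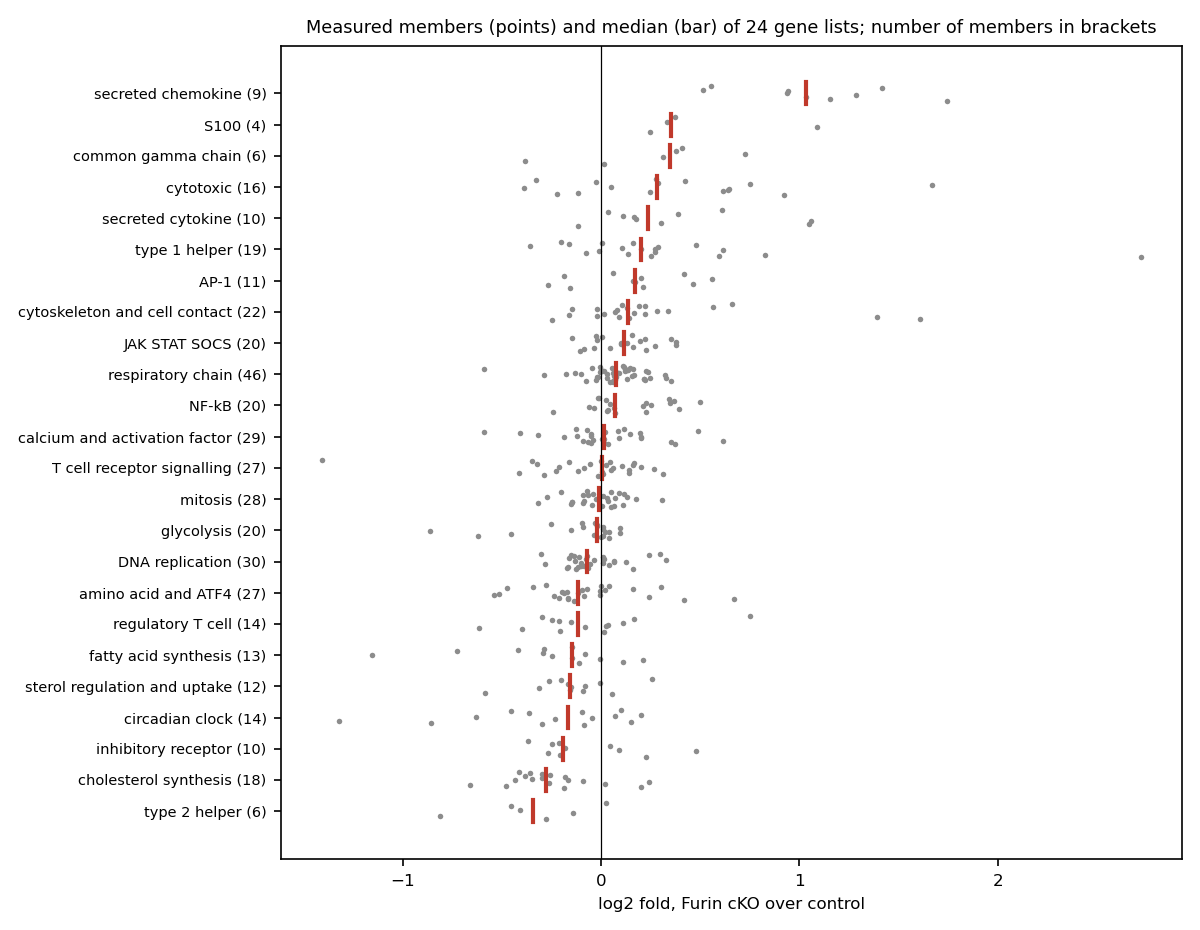
Log2 folds of the Furin cKO over the control array are shown for the measured members (grey points) of 24 gene lists, with the list median as a red bar and the number of members in brackets. The chemokine list lies furthest right, with a median of 1.03, and the type 2 helper and cholesterol lists furthest left, with -0.34 and -0.28.

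The freshly sorted memory and regulatory arrays, 1 for each genotype, give values beside these. No test of a difference between populations is possible with 1 array a group, and the Furin signal of the memory library labelled Furin cKO went against its label. Foxp3, which the regulatory label names, read 50.4 and 33.8 on those arrays but 1358 and 1116 on the memory arrays, against the labels. Il2ra, which encodes CD25 of the same label, read 4277 and 3702, and 1190 and 626.8 in memory cells. The cause was not tested, and the population names are those of the labels. Ifng read 1114 and 4675 in memory cells and 164.4 and 157.0 in regulatory cells, control first. Nkg7 read 6636 and 10514 in memory and 685.8 and 667.5 in regulatory cells, and Ccl3 107.5 and 291.6, and 98.5 and 50.9. These 3 genes were higher on the Furin cKO array in activated and memory cells and not in regulatory cells. Others of their lists were lower in memory cells, among them Irf8 at 4521 and 1910 and Xcl1 at 1642 and 939.9. Markers of other cells were bright on the memory arrays and differed both ways. H2-Aa read 18042 and 9329 and Tyrobp 6299 and 2680, while Lyz2 read 917.1 and 1026 and S100a8 258.6 and 2736. The part of other cells in the memory values was not tested. In memory cells 11 of 20 type 1 genes were higher, with a median log2 fold of 0.095, 10 of 12 chemokines and 15 of 21 cytotoxic genes. In regulatory cells 6 of 19, 4 of 11 and 12 of 22 were higher. The share of all genes higher on the memory and regulatory arrays was not taken. These counts, and those of the cholesterol list below, therefore have no background beside them. Dhcr7, of the sterol arm, read 830.0 and 639.5 in memory and 464.7 and 473.2 in regulatory cells. Over the cholesterol list 11 of 18 genes were higher in memory cells, with a median log2 fold of 0.12, and 13 of 18 lower in regulatory cells, with a median of -0.16.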

How the data were processed

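RNA from 5 µg of total RNA per sample, extracted with Trizol, was labelled as biotinylated cRNA and hybridised to 1 Affymetrix mouse array a sample, per the labels' protocols. The authors deposited 1 intensity per probe set and array on a linear scale, which the submitters' processing notes credit to MAS5, with no version given. From the values, each array has a trimmed mean of 500 (2% cut from each end), so the arrays were scaled to a common level before deposit, and the detection calls were not used here. MAS5 signals of dim probe sets scatter widely, which affects their folds most. Of 45101 probe sets, 64 were controls, 34945 had 1 gene symbol, 932 had several and 9160 had none in the platform annotation, which can be old. Only those with 1 symbol were named, and 34741 of them matched RefSeq by Entrez ID.

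For each gene the brightest probe set was kept, by mean log2 signal on all 6 arrays after raising signals to the floor, the pooled 40th percentile (47.6). Log2 folds are Furin cKO minus control. There is 1 array a group, and their number limits the precision: no test was run and no error can be given. Genes named are Furin, the 15 largest folds each way among genes with both signals above the floor whose brighter signal reached the pooled 60th percentile (144.8), the 6 largest lower bounds each way, and members of 56 gene lists, with clone names left out of the rankings. Other names, those next to a threshold included, were chosen after their values were seen. The members and the lists were chosen with earlier results of these data known. Lists are described by counts and medians. On the activated arrays these are read against all genes: 48.9% were higher and 51% lower, with a median log2 fold of -0.00. The 9 alternatives changed the floor, the normalization between arrays, the probe set that stands for a gene or the handling of dim signals. Promoters are RefSeq's on GRCm38.p6. Python 3.11.15 with pandas 2.3.3 and numpy 2.4.6, and R 4.3.3 with limma 3.58.1 for cyclic loess, were used. The scripts were tested on simulated data.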

Additional observations from a re-analysis of the deposited data

Results flagged for a closer look

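The genes below were at least 2-fold apart on the activated arrays and at least 2-fold apart in the opposite direction on the arrays of another population. The difference between the populations was not tested, since each has 1 array a genotype, and the comparisons share no array. The populations are named by their labels, which the Foxp3 signals went against. In regulatory cells Zdhhc12 went from 317.0 (control) to 154.7 (Furin cKO), a log2 fold of -1.04 against 1.85 in activated cells. Ccl1 had -1.29 in regulatory cells, a lower bound on its size with the Furin cKO array below the floor, against 1.74 in activated cells. Rpl39l had -1.48 in regulatory cells against 1.27.

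In memory cells, where Furin itself was higher on the library labelled Furin cKO, Camta1 had -1.63 against 1.36 in activated cells, and Dtx3, bright at 1218.5 on the memory control and 483.2 on the Furin cKO array, had -1.33 against 1.21. Tpm2 had -1.35 in memory cells, a bound, against 1.61. Scd1 was lower in activated cells (-1.16) and higher in both other populations, by 1.11 in memory cells, from 143.3 to 310.0, and by at least 1.84 in regulatory cells, from below the floor to 170.7. Septin3 had 1.94 in memory cells against a bound of -1.11 in activated cells.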

How the results depend on the processing

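With 1 array a genotype no array can be left out. No paired analysis was possible because each genotype has 1 activated array. The counts of genes at least 2-fold apart depended on dim signals: a floor at the 20th percentile gave 477 higher and 448 lower, a floor at the 60th gave 18 and 9, 50 added to each signal in place of a floor gave 27 and 16, and the mean of all probe sets gave 25 and 19. The higher share of these calls was 51.2% as reported, 66.7% at the 60th percentile and 62.8% with 50 added. Quantile normalization gave 71 higher and 52 lower, and a secreted cytokine median of 0.11. Cyclic loess gave 44 and 38. Over all alternatives the chemokine median lay between 0.89 and 1.09, the cholesterol median between -0.30 and -0.18, the fatty acid median between -0.24 and -0.14 and the type 2 median between -0.34 and -0.21. At the 20th percentile the gamma delta marker median turned to -0.64, Tpm2 to -0.82 and Vegfa to 0.40. With quantile normalization the gamma delta median was -0.11, Vegfa 0.31 and the B cell marker median 0.10. The plasma cell marker median was 0.018 at the 60th percentile and 0.017 with the probe set brightest on both activated arrays, which also turned Srebf2 to 0.063 and Map1lc3b to -0.051. The cause of these turns was not tested.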

Other observations

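Some groups not described above were split. Survival and death genes of the BCL2 family had 8 of 14 measured members higher on the Furin cKO array, with a median log2 fold of 0.03. Bcl2l11, which encodes the death inducer BIM, read 6952 on the control and 5526 on the other array, and Bak1, a pore former of the mitochondrial membrane, 95.2 and 153.7. Mcl1 and Bcl2l1, the survival genes, read 9518 and 9761, and 5859.7 and 5798.5. Genes of quiescence and lymph node homing had 13 of 21 higher and a median of 0.06, with Lef1 at 2791 and 2093 and Id2 at 546.7 and 738.4. Lysosome genes had 12 of 20 higher and a median of 0.03. Iron genes had 2 of 7 higher and a median of -0.13, purinergic genes 2 of 6 and -0.15, and cell cycle inhibitors 4 of 10 and -0.04. Ada, adenosine deaminase, read 659.1 and 867.8, and Nt5e, the ectoenzyme CD73 that makes adenosine, 56.6 and 38.5.

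Among probe sets with no gene symbol, 3587 could be measured, of which 16 passed 2-fold upward and 23 downward on the Furin cKO array. Over all genes with another probe set above the floor, 55.5% had at least 1 that pointed the other way. Pax5, a B cell factor, read 52.3 on the control array, just above the floor, and 28.6 on the Furin cKO array, below it. The floor thus fixed its direction as lower.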
